A study of Mus musculus with 4 samples.

Results

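The 10 genes described here comprise 9 negative regulators of the G1 phase and *Skp2*, an antagonist of some of them, found by gene symbol among the 23997 genes of the RNA-Seq table. They are the Cip/Kip inhibitors *Cdkn1a*, *Cdkn1b* and *Cdkn1c*, the INK4 inhibitors *Cdkn2a*, *Cdkn2c* and *Cdkn2d*, the pocket protein genes *Rb1*, *Rbl1* and *Rbl2*, and *Skp2*, and all 10 were in the table. Their expression was compared between Lgr5+ progenitors, which are EGFP+ cells sorted by flow cytometry from cochleae of Lgr5-EGFP-IRES-creERT2 mice, and Lgr6+ progenitors, which are EGFP+ cells sorted from cochleae of Lgr6-EGFP-IRES-CreERT2 mice. Both populations came from C57BL/6 mice at postnatal day 3, with no treatment named, and EGFP in each line reports the activity of the *Lgr5* or the *Lgr6* locus. The comparison addressed how the populations, both of which can generate hair cells (HCs), differ in genes that regulate proliferation. The labels list 2 libraries per population, whereas the methods describe 3 fractions of 1 RNA extraction, and the numbers of mice were not given in the sources used here. The table holds 1 value per gene and population, with the libraries already combined, so there is no spread between replicates, no test and no error on any value given here.

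Cyclin-dependent kinases (Cdks) drive a cell from G1 into S phase by phosphorylating the pocket proteins, which otherwise hold E2F transcription factors in check. INK4 proteins bind Cdk4 and Cdk6, while Cip/Kip proteins bind complexes of Cdks with their cyclins. Skp2 is the substrate-binding subunit of a ubiquitin ligase that marks Cip/Kip proteins, above all the product of *Cdkn1b*, for degradation. In the cochlea, *Cdkn1b* is known for its expression in the prosensory domain as it leaves the cell cycle and later in supporting cells (SCs), and *Cdkn2d* and *Rb1* are known to keep HCs from dividing again.

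Levels are given in FPKM, a fragment count scaled by the length of the transcript and by the depth of the library, which allows levels of different genes to be set side by side. Differences are given as the log2 change, which is log2(FPKM + 1) in Lgr6+ cells minus log2(FPKM + 1) in Lgr5+ cells. The added 1 makes this smaller than the log2 ratio of FPKM for genes with low values. A gene was kept when its FPKM was at least 1 in at least 1 population, which 13436 genes reached, and it was called different when it was at least 1.5-fold higher in one population on this scale. This is a rule of size and not a test. The median log2 change over the kept genes was 0.03.

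The highest levels among the 10 genes belonged to *Cdkn1c* and *Cdkn2d*, and the levels of *Cdkn1a*, *Cdkn1b*, *Cdkn1c*, *Cdkn2d* and *Rb1* differed by less than 1.5-fold between the populations. *Skp2* was higher in Lgr5+ cells, and *Cdkn2c*, *Rbl1* and *Rbl2* were higher in Lgr6+ cells. *Cdkn2a* was listed at 0 in both. Of the 10 genes 9 were kept, of which 1 was at least 1.5-fold higher in Lgr5+ cells, against 23.3% of all kept genes, and 3 were higher by that factor in Lgr6+ cells, against 28.5% of all kept genes. *Cdkn2c* and *Rbl1* passed the filter only through their Lgr6+ value, so they had to be higher there and their part of the count supports nothing. Over all genes the calls numbered 3136 toward Lgr5+ cells and 3826 toward Lgr6+ cells, or 2186 and 4958 after scaling both populations to the same summed FPKM. The median log2 change of the 9 kept genes was 0.22, with *Cdkn2c* and *Rbl1* among them. With at least 1 FPKM asked of both populations it was 0.10, beside -0.03 for all such genes. All 4 genes past the limit had low levels, with at most 5.65 FPKM in either population, whereas 4 of the 5 genes under it had more than 40 FPKM in both.

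**Figure D1:**
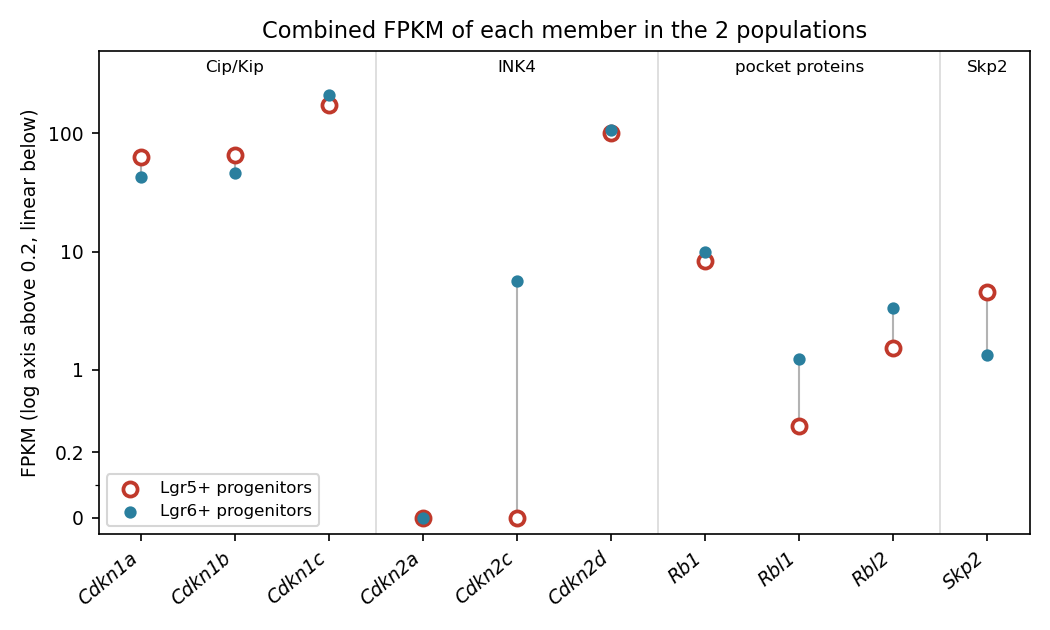
The combined FPKM of each of the 10 genes in Lgr5+ progenitors (open red circles) and Lgr6+ progenitors (filled blue circles), with 1 value per population and no error bars because no replicate values were available. The circles of *Cdkn1c*, *Cdkn2d* and *Rb1* lie close together, those of *Cdkn2c*, *Rbl1*, *Rbl2* and *Skp2* lie far apart at low FPKM, and *Cdkn2a* lies at 0 in both.

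Small differences in low values need to be read against all genes of like level. Among the 711 kept genes with a mean FPKM under 1, 26.2% were at least 1.5-fold higher in Lgr5+ cells and 60.5% in Lgr6+ cells. Each of these 711 genes was necessarily under 1 FPKM in one population and passed the filter only through the other. The filter thus fixed their direction, and their shares support nothing about *Rbl1*. It did the same for part of the next band, among them *Cdkn2c*. At a mean FPKM from 1 to under 5 the shares were 22.6% and 39.7%, and from 5 to under 20 they were 22.6% and 26.2%. From 20 to under 100 they were 22.9% and 18.6%, and at 100 and above they were 29.1% and 7.84%. Low FPKM values lay on steps, as whole fragments do, and for 7050 genes with 1 annotated transcript the step of FPKM times effective length in kilobases was 0.128 in Lgr5+ cells and 0.0402 in Lgr6+ cells. The Lgr5+ step held 88 values against 11 beside it, and the Lgr6+ step 29 values against 11.5. If a step is 1 fragment, the Lgr6+ values rest on 3.19 times as many fragments as the Lgr5+ values. Amplified fragments are not independent molecules, and a step of a combined value may also be a share of a fragment. No interval was therefore calculated from the steps.

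**Figure D2:**
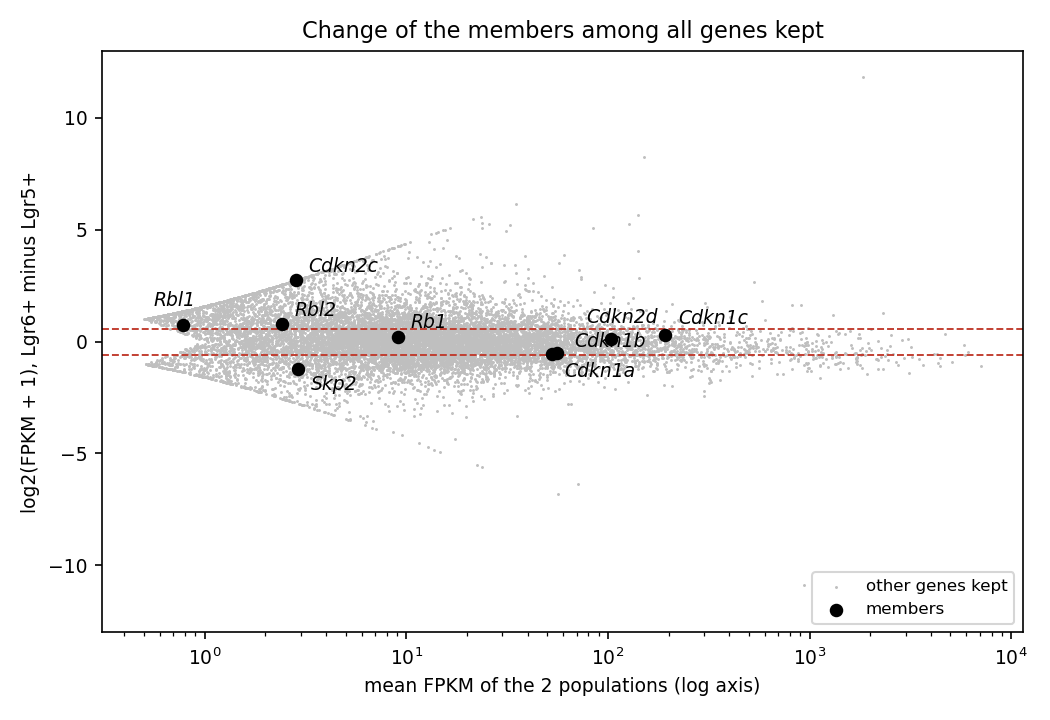
The log2 change of every kept gene (grey) against its mean FPKM over the populations on a log axis, with the 9 kept genes of the group in black and dashed red lines at 1.5-fold in each direction. *Skp2*, *Rbl1*, *Rbl2* and *Cdkn2c* lie at a mean FPKM under 5, and *Cdkn2c* lies on the upper edge formed by genes listed at 0 in Lgr5+ progenitors.

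Sequence upstream of these genes is shown for 4 of the 5 genes in which the letters of an E2F, CHR or p53 site were found, to show which elements such genes carry, and the fifth was *Cdkn2a*, which had no expression value above 0. RefSeq promoters of the GRCm38.p6 build were given for 12 start sites of 8 of the 10 genes, and the 250 bases before each start were searched on both strands. The E2F site was searched as TTTCCCGC, TTTCGCGC, TTTGCCGC or TTTGGCGC, and 1.86% of all 32851 promoters held one. The CHR element, through which the DREAM complex of pocket proteins acts, was searched as TTTGAA, which 16.0% held. The p53 site was searched as its consensus of 20 letters with at most 1 letter off, which 0.0761% held. The GC box was searched as GGGCGG, which 32.7% held, and these words do not overlap in the windows printed here. Capitals mark E2F, CHR and p53 matches, and each window is written 5′ to 3′ on the strand of the gene and ends at the base before the start. The printed windows were chosen after the matches were seen, a match is a description of letters, and binding was not measured. The window of *Rbl1* is chr2:157204535-157204784 on the minus strand, that of *Rbl2* is chr8:91069807-91070056 on the plus strand, that of *Skp2* is chr15:9155426-9155675 on the minus strand and that of *Cdkn1a* is chr17:29090729-29090978 on the plus strand.
Rbl1: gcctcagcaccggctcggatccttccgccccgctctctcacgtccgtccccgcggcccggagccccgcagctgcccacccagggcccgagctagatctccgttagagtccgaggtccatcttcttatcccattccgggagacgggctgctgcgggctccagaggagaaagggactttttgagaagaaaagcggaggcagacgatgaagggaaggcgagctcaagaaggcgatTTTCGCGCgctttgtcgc
Rbl2: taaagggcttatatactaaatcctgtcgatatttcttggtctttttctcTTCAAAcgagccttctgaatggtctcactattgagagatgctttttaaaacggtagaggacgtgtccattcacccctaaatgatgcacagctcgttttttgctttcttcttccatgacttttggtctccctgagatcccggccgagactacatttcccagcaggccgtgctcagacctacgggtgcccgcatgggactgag
Skp2: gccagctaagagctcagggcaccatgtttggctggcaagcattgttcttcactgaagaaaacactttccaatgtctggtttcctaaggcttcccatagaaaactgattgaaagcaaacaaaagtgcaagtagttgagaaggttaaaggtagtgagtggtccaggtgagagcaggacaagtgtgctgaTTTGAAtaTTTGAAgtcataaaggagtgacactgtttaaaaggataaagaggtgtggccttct
Cdkn1a: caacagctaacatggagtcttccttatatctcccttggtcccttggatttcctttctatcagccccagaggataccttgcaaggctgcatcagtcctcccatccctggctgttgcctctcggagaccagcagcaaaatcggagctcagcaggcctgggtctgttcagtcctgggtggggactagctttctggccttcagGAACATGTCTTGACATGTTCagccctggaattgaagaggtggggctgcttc

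The E2F word TTTCGCGC of *Rbl1* lay 18 to 11 bases before the start, and E2F factors are those that pocket proteins restrain. *Skp2* had CHR words at 63 to 58 and at 55 to 50 bases before its outer start and none before its inner start, where the window held a GC box instead. In *Rbl2* the CHR word lay 201 to 196 bases before the start and reads TTCAAA on the strand of the gene. The p53 word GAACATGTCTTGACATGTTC of *Cdkn1a* lay 51 to 32 bases before its outer start. An E2F match was also found at the outer start of *Cdkn2a*, and 7 of the 8 genes had a GC box before at least 1 start. These are counts of genes, some with more than 1 start, and cannot be set directly against shares of promoters. The windows with a GC box held from 63.6% to 78.4% G and C, beside a median of 52.4% over all promoters.

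The Cip/Kip genes made up the bulk of the inhibitor transcripts in both populations. *Cdkn1c*, an imprinted gene whose product is the Kip2 inhibitor, spans chromosome 7 from 143458339 to 143461059. Its level was 173 FPKM in Lgr5+ cells and 213 FPKM in Lgr6+ cells, a ratio of 1.23 and a log2 change of 0.30. It was the highest of the 10 genes in both populations, at or above 95.4% of the genes with a value above 0 in Lgr5+ cells and 97.0% in Lgr6+ cells.

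*Cdkn1b*, which encodes the Kip1 inhibitor that Skp2 targets, lies on chromosome 6 from 134920401 to 134925525. Its level was 66.0 FPKM in Lgr5+ cells and 46.2 FPKM in Lgr6+ cells, so the Lgr5+ level was 1.43 times the Lgr6+ level and the log2 change was -0.50. *Cdkn1a*, the inhibitor gene best known as a p53 target, lies on chromosome 17 from 29090979 to 29100722. It had 62.5 FPKM in Lgr5+ cells and 42.7 FPKM in Lgr6+ cells, a ratio of 1.47 in favor of Lgr5+ cells and a log2 change of -0.54. Both genes were thus lower in Lgr6+ cells by nearly the same factor, and both stayed under the 1.5-fold limit. An absolute log2 change smaller than that of *Cdkn1a* was seen in 44.6% of the kept genes, and one smaller than that of *Cdkn1c* in 26.2%.

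Summed over the Cip/Kip genes the level was 301.2 FPKM in Lgr5+ cells and 301.7 FPKM in Lgr6+ cells, so the sums differed by a ratio of 1.002. The make-up of the sum differed more than the sum. *Cdkn1c* held 57.3% of it in Lgr5+ cells and 70.5% in Lgr6+ cells, while *Cdkn1b* held 21.9% and 15.3% and *Cdkn1a* held 20.8% and 14.1%. The level of *Cdkn1c* was 2.62 times that of *Cdkn1b* in Lgr5+ cells and 4.61 times in Lgr6+ cells.

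Among the INK4 genes, *Cdkn2d*, on chromosome 9 from 21288459 to 21291421, was the gene with by far the highest level. It had 100.1 FPKM in Lgr5+ cells and 107 FPKM in Lgr6+ cells, a ratio of 1.07. The log2 change of 0.10 was the closest to 0 among the kept genes of the group, and only 9.25% of all kept genes had a smaller absolute change. *Cdkn2a*, which yields the Ink4a and Arf proteins from different reading frames and spans chromosome 4 from 89274473 to 89294619, had a value of 0 in both populations and was not kept. The combined value does not separate its products.

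*Cdkn2c* spans chromosome 4 from 109660876 to 109666756 and encodes the Ink4c inhibitor. It was listed at 0 in Lgr5+ cells and had 5.65 FPKM in Lgr6+ cells. No ratio is given against a value of 0, and its log2 change of 2.73 is set by the added 1. By the coding transcripts annotated for it, the Lgr6+ value corresponds to between 127.4 and 319.2 steps. Of all genes, 123 were listed at 0 in Lgr5+ cells with at least 5 FPKM in Lgr6+ cells, and 36 showed the opposite. A listed 0 can be a failed estimate. Of 216 genes for cytoplasmic and mitochondrial ribosomal proteins and proteasome subunits, 1, the proteasome gene *Psmb8*, was listed at 0 in Lgr5+ cells with at least 5 FPKM in Lgr6+ cells, and none the other way. The 216 were picked by symbol and not by whether every cell type expresses them. Whether the 0 of *Psmb8* or that of *Cdkn2c* was a failed estimate was not tested.

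Together the INK4 genes summed to 100.1 FPKM in Lgr5+ cells and 113 FPKM in Lgr6+ cells, and *Cdkn2c* was 4.998% of the Lgr6+ sum. With the Cip/Kip genes added, the 6 inhibitors summed to 401 FPKM in Lgr5+ cells and 415 FPKM in Lgr6+ cells, a ratio of 1.03. *Cdkn2d* made up 24.9% and 25.9% of this sum and *Cdkn1c* 43.0% and 51.3%.

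**Figure D3:**
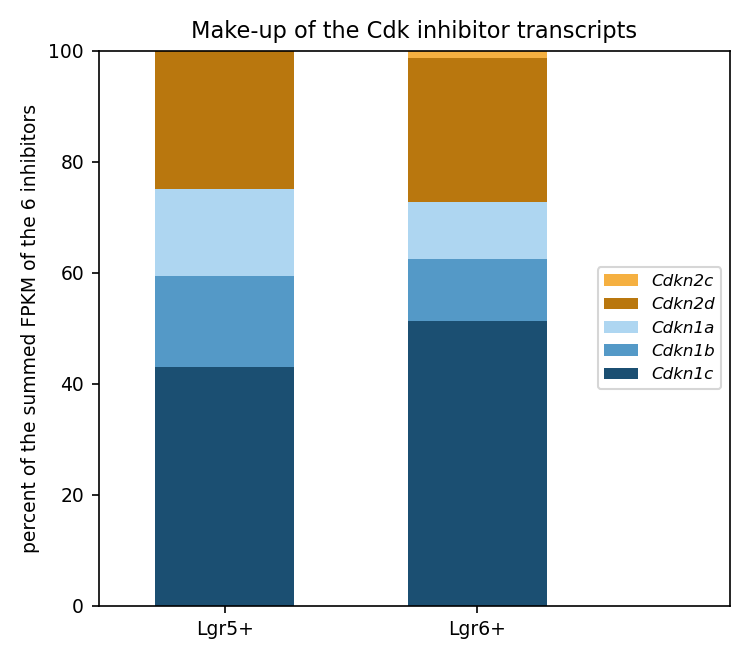
The share of each inhibitor gene in the summed FPKM of the 6 Cip/Kip and INK4 genes, as stacked percent for Lgr5+ and Lgr6+ progenitors (*Cdkn2a*, at 0, has no bar). The *Cdkn1c* share is 43.0% in Lgr5+ and 51.3% in Lgr6+ progenitors, the *Cdkn1b* and *Cdkn1a* shares are smaller in Lgr6+ progenitors, and the *Cdkn2d* share is 24.9% and 25.9%.

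The pocket protein genes were expressed at much lower levels than the main inhibitors, and each was higher in Lgr6+ cells. *Rb1*, on chromosome 14 from 73192858 to 73325951, had 8.38 FPKM in Lgr5+ cells and 9.90 FPKM in Lgr6+ cells. The ratio was 1.18 and the log2 change 0.22, under the limit. *Lpar6*, a gene that lies inside the span of *Rb1*, had 1.79 and 4.29 FPKM.

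*Rbl2*, which encodes the p130 protein found with E2F4 in quiescent cells, spans chromosome 8 from 91070057 to 91123844. Its level was 1.53 FPKM in Lgr5+ cells and 3.32 FPKM in Lgr6+ cells, a ratio of 2.17 and a log2 change of 0.77. *Rbl1*, which encodes the p107 protein that is more typical of cycling cells, spans chromosome 2 from 157145893 to 157204534. It had 0.335 FPKM in Lgr5+ cells and 1.22 FPKM in Lgr6+ cells, a ratio of 3.64 and a log2 change of 0.73. The Lgr5+ value of *Rbl1* corresponds to 12.2 steps and the Lgr6+ value to 141.4, and for *Rbl2* the numbers are 56.3 and 390.6. After quantile normalization the log2 change was 0.26 for *Rbl1* and 0.47 for *Rbl2*, both under the limit. The 3′ part of *Rbl2* overlaps *Aktip*, which had 28.3 FPKM in Lgr5+ cells and 23.4 FPKM in Lgr6+ cells, and the library kit does not mark the strand of a read. The interval that the table lists for *Rbl2* runs to 91135496 and takes in *Aktip*. How its reads were assigned was not tested.

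Summed FPKM of the pocket protein genes was 10.2 in Lgr5+ cells and 14.4 in Lgr6+ cells, a ratio of 1.41. *Rb1* held 81.8% of it in Lgr5+ cells and 68.6% in Lgr6+ cells. The level of *Rb1* was 25.03 times that of *Rbl1* in Lgr5+ cells and 8.12 times in Lgr6+ cells.

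*Skp2*, on chromosome 15 from 9111982 to 9155425, was the 1 gene of the 9 kept that was at least 1.5-fold higher in Lgr5+ cells. Its level was 4.50 FPKM there and 1.32 FPKM in Lgr6+ cells, so the Lgr5+ level was 3.42 times the Lgr6+ level and the log2 change was -1.25. Among all kept genes 79.9% had a smaller absolute change. The values correspond to between 105.4 and 210.4 steps in Lgr5+ cells and to between 98.6 and 196.8 in Lgr6+ cells, depending on the transcript. *Cdkn1b*, which encodes its substrate, had 14.6 times the FPKM of *Skp2* in Lgr5+ cells and 35.0 times in Lgr6+ cells. The span of *Skp2* shares 14898 bases with *Lmbrd2*, which had 1.16 FPKM in Lgr5+ cells and 3.78 FPKM in Lgr6+ cells, a log2 change of 1.15 in the opposite direction. The interval that the table lists for *Skp2* runs to 9197450, past the end of its RefSeq span and within that of *Lmbrd2*. How reads of this interval were assigned was not tested. With an FPKM of at least 5 asked of at least 1 population, *Skp2* dropped out.

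**Figure D4:**
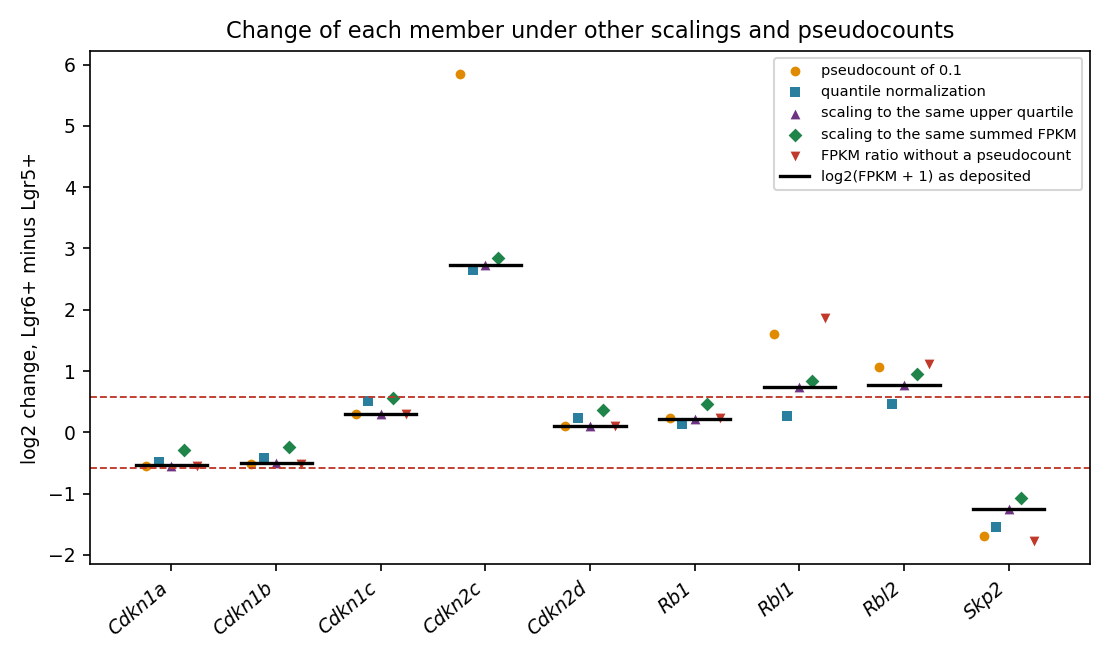
The log2 change of the 9 kept genes as deposited (black bars) and under 5 other treatments of the values (colored symbols), with dashed red lines at 1.5-fold. *Cdkn1a* and *Cdkn1b* stay below 0 and *Cdkn1c*, *Cdkn2d* and *Rb1* above it inside the lines, *Skp2* stays below the lower line, and *Rbl1* and *Rbl2* cross the upper line under quantile normalization (*Cdkn2c* has no ratio without a pseudocount).

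The counts in the lists of related genes that follow are to be read against 23.3% of all kept genes called higher in Lgr5+ cells and 28.5% in Lgr6+ cells. A gene under 1 FPKM in one population passed the filter only through the other and had to be higher there, so counts are also given for genes with at least 1 FPKM in both populations. Of all 11177 such genes, 22.5% were called higher in Lgr5+ cells and 21.4% in Lgr6+ cells.

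The list of Skp2 ligase genes held subunits and cofactors of the ligase together with genes that act on it or beside it. Of its 10 genes, all with at least 1 FPKM in both populations, 2 were at least 1.5-fold higher in Lgr5+ cells and none in Lgr6+ cells, and the median log2 change was 0.29. After scaling to the same summed FPKM the numbers were 1 and 5. That scaling also moved the calls over all 13436 kept genes from 3136 and 3826 to 2186 and 4958. *Nedd8*, the modifier that activates the cullin, had 1328 FPKM in Lgr5+ cells and 795 FPKM in Lgr6+ cells, a log2 change of -0.74. *Fbxw7*, the substrate-binding subunit of another ligase of this kind, had 12.5 and 6.28 FPKM, a log2 change of -0.89. *Cul1*, the scaffold, had 29.0 and 42.9 FPKM, and *Skp1a*, the adaptor, had 1324 and 1858 FPKM. *Cks1b*, the cofactor with which Skp2 binds its substrate, had 22.5 times the FPKM of *Skp2* in Lgr5+ cells and 61.2 times in Lgr6+ cells.

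Of the 11 Cdk and cyclin genes whose products the inhibitors bind, 8 were kept, and 1 was at least 1.5-fold higher in Lgr5+ cells and 3 in Lgr6+ cells. Of these 3, *Cdk1* and *Ccne1* passed only through Lgr6+ cells, and among the 6 genes with at least 1 FPKM in both populations 1 was called in each direction. *Cdk4*, a target of INK4 proteins, had 299 FPKM in Lgr5+ cells and 236 FPKM in Lgr6+ cells, a log2 change of -0.34. The level of *Cdk4* was 2.99 times that of *Cdkn2d* in Lgr5+ cells and 2.20 times in Lgr6+ cells. *Ccnd1*, which encodes cyclin D1, had 66.8 and 34.4 FPKM, a log2 change of -0.94, and *Ccnd2* had 4.797 and 8.41 FPKM, a log2 change of 0.70. The D-type cyclin genes summed to 106.7 FPKM in Lgr5+ cells and 79.5 FPKM in Lgr6+ cells, a ratio of 0.746. *Cdk1*, the mitotic kinase, had 0.119 and 5.49 FPKM, a log2 change of 2.54.

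Downstream of the pocket proteins, 8 of the 10 E2F and DP genes were kept, with 2 at least 1.5-fold higher in Lgr5+ cells and 4 in Lgr6+ cells. Among the 7 with at least 1 FPKM in both populations the counts were 2 and 3. *E2f4*, the partner of p130, had 23.1 FPKM in Lgr5+ cells and 41.2 FPKM in Lgr6+ cells, a log2 change of 0.81. *E2f5*, another repressive E2F, had 22.5 and 38.1 FPKM, and *Tfdp1*, the dimerization partner of E2Fs, had 12.7 and 25.3 FPKM, log2 changes of 0.73 and 0.94. *E2f3* and *E2f6* were higher in Lgr5+ cells, with log2 changes of -0.87 and -0.97. *E2f1* had 0.318 and 1.62 FPKM.

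Subunits of the MuvB core, which joins p107 or p130 and E2F4 in the DREAM complex, were listed with *Mybl2*, which joins the core in cycling cells. Of the 6 genes, 3 had the higher value in each population. The 5 kept genes all had at least 1 FPKM in both, and 3 were at least 1.5-fold higher in Lgr5+ cells and none in Lgr6+ cells. After scaling to the same summed FPKM the counts were 2 and 1, and those over all 13436 kept genes were 2186 and 4958. The median log2 change was -0.61 for the kept genes and -0.17 with *Mybl2*, at 0 and 0.859 FPKM, included. *Lin9* had 5.43 FPKM in Lgr5+ cells and 1.32 FPKM in Lgr6+ cells, *Lin37* had 73.6 and 36.8 FPKM, and *Rbbp4* had 23.0 and 14.7 FPKM, log2 changes of -1.47, -0.98 and -0.61.

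The E2F target genes of S phase showed no common direction. Of 15 genes 13 were kept, with 4 at least 1.5-fold higher in Lgr5+ cells, 3 in Lgr6+ cells and a median log2 change of -0.14. Among the 9 with at least 1 FPKM in both populations the counts were 2 and 1. *Mcm2*, a subunit of the replicative helicase, had 11.9 FPKM in Lgr5+ cells and 3.42 FPKM in Lgr6+ cells, whereas *Pcna*, the sliding clamp, had 25.3 and 57.0 FPKM. *Tk1* was listed at 0 in Lgr5+ cells and had 11.3 FPKM in Lgr6+ cells. In the list of proliferation markers, which act mostly in mitosis, 8 of 10 genes were kept, and none was at least 1.5-fold higher in Lgr5+ cells while 6 were in Lgr6+ cells. Of these 6, *Mki67*, *Ccnb2* and *Aurkb* passed only through Lgr6+ cells, which also raises the median log2 change of 1.00. Among the 5 genes with at least 1 FPKM in both populations, 3 were called higher in Lgr6+ cells. *Aurkb* had 0.540 and 8.51 FPKM and *Cdc20* had 1.09 and 9.97 FPKM, while *Birc5*, the highest of the list, had 16.8 and 11.2 FPKM. With 5 FPKM asked of either population, 2 genes of this list were called higher in Lgr6+ cells.

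Regulators upstream of the inhibitors and other targets of p53 were set beside *Cdkn1a*. Of 12 upstream regulators 10 were kept, with 3 at least 1.5-fold higher in Lgr5+ cells and 1 in Lgr6+ cells, and among the 8 with at least 1 FPKM in both populations the counts were 2 and 0. *Trp53*, which encodes p53, had 26.9 FPKM in Lgr5+ cells and 13.2 FPKM in Lgr6+ cells, a log2 change of -0.97. *Zbtb17*, which encodes the Miz-1 factor of inhibitor promoters, had 21.3 and 10.7 FPKM, and *Myc* had 0.0740 and 1.32 FPKM. All 10 p53 target genes were kept, and 4 were at least 1.5-fold higher in each population, or 3 and 4 of the 9 with at least 1 FPKM in both, so *Cdkn1a*, at a log2 change of -0.54, lay between them. *Bax* had 283 and 110.0 FPKM and *Bbc3* had 9.13 and 2.35 FPKM, while *Sesn1* had 9.27 and 20.6 FPKM and *Phlda3* had 3.13 and 9.34 FPKM. *Ccng1* was also higher in Lgr5+ cells, at 11.1 and 4.95 FPKM, and *Gadd45a*, at 9.56 and 18.3 FPKM, and *Ppm1d*, at 2.70 and 6.51 FPKM, were higher in Lgr6+ cells.

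The last list held 4 further genes named for Cdk inhibitors, all kept, with 2 called in each direction, of which 1 each passed only through the population where it was higher. *Cdkn2aipnl* had 29.8 and 10.1 FPKM and *Cdkn2aip* 2.17 and 5.71 FPKM, and neither is itself a Cdk inhibitor gene. *Cdkn2b*, the INK4 gene beside *Cdkn2a*, had 1.77 FPKM in Lgr5+ cells and 0.133 FPKM in Lgr6+ cells, and *Cdkn3*, a phosphatase of Cdks, was listed at 0 and at 1.62 FPKM. *Cdkn2b* was named after its values were seen. Over all 87 genes of the pathway lists, 75 were kept, of which 21 were at least 1.5-fold higher in Lgr5+ cells and 23 in Lgr6+ cells. Among genes with at least 1 FPKM in both populations these counts were 16 and 13. The median log2 change of the 75 was 0.10, beside 0.03 for all kept genes. The 75 include genes whose direction the filter fixed. With at least 1 FPKM in both populations the median was -0.07, beside -0.03 for all such genes, so its sign depends on the filter.

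**Figure D5:**
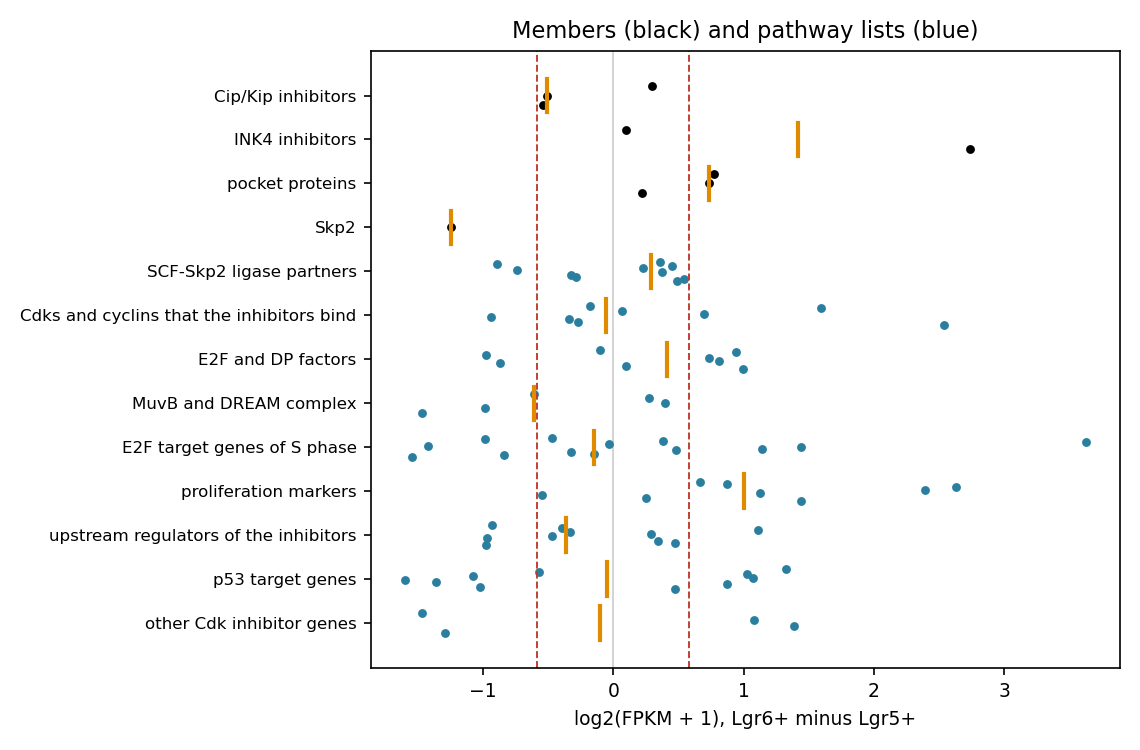
The log2 change of each kept gene (points) and the median of each list (orange bars) for the 10 genes by role (black) and for the pathway lists (blue), with dashed red lines at 1.5-fold. The proliferation markers lie mostly right of the lines with a median of 1.00, the kept MuvB genes spread from -1.47 to 0.40, and the S phase genes spread from -1.54 to 3.62.

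The sorted populations held transcripts of other cell types in unlike amounts, and since these are bulk samples, fewer cells of a type and less RNA per cell cannot be told apart. *Lgr5* itself had 9.65 FPKM in Lgr5+ cells and 24.99 FPKM in Lgr6+ cells, and *Lgr6* had 2.06 and 2.90 FPKM, so neither sorting gene was at least 1.5-fold higher in the population named for it. The paper describes Lgr6+ cells as a subpopulation of Lgr5+ progenitors, so the populations are not separate cell types. It checked each sort by re-sorting, by immunostaining and by q-PCR against the negative cells of the same line, a comparison the table does not hold. It reports no Myo7a staining in either sort, Sox2 staining in nearly all cells, and less of the HC marker Brn3.1 than in negative cells. Staining reads protein, whereas the values here are of RNA. All 10 SC markers were kept, and their summed level was 1228 FPKM in Lgr5+ cells and 643 FPKM in Lgr6+ cells, or 723 and 551 FPKM without *Hes5*. Of these markers 3 were called higher in Lgr5+ cells, 1 in Lgr6+ cells and 6 in neither. The SC marker *Sox2* had 139.6 and 54.8 FPKM. All 10 HC markers were also present in both populations and higher in Lgr6+ cells, 7 of them by at least 1.5-fold, and their sums were 503 and 874 FPKM. Macrophage markers summed to 3.88 FPKM in Lgr5+ cells and 264 FPKM in Lgr6+ cells, with 8 of 10 called higher in Lgr6+ cells and 6 listed at 0 in Lgr5+ cells, among them *C1qb*, *C1qc* and *Tyrobp*. Of the 8 called, 7 passed the filter only through Lgr6+ cells and had to be higher there. The other 1 had at least 1 FPKM in both populations. *Ptprc*, a defining leukocyte gene, was listed at 0 and at 0.00814 FPKM. For endothelial markers the sums were 18.9 and 102 FPKM with 7 of 8 called higher in Lgr6+ cells and 1 in Lgr5+ cells. Among the 4 with at least 1 FPKM in both populations, 4 were called higher in Lgr6+ cells and none in Lgr5+ cells. For Schwann cell markers the sums were 97.0 and 248 FPKM, with 4 of 8 called higher in Lgr6+ cells and 1, *Egr2*, in Lgr5+ cells. Among the 4 with at least 1 FPKM in both populations, 2 were called higher in Lgr6+ cells and 1 in Lgr5+ cells. Mesenchyme and fibrocyte markers summed to 330 and 609 FPKM with 5 of 10 called higher in Lgr6+ cells and 1 in Lgr5+ cells, and neuronal markers to 114 and 128 FPKM with 2 of 8 in each direction. All 10 mesenchyme and fibrocyte markers had at least 1 FPKM in both populations. So did 5 neuronal markers, of which 1 was called in each direction. Erythroid markers summed to 630 and 108 FPKM, with 4 of 6 called higher in Lgr5+ cells and none in Lgr6+ cells. Of these 4, *Hba-a1* and *Hba-a2* passed only through Lgr5+ cells. Among the 3 with at least 1 FPKM in both populations, 2 were called higher in Lgr5+ cells. *Cdkn2c*, *Rbl1*, *Rbl2* and 6 of the proliferation markers, but not *Birc5*, were called higher in the population in which most HC, macrophage and endothelial markers were higher, and the part of those cells in their values was not tested. Of these genes, *Cdkn2c*, *Rbl1*, *Mki67*, *Ccnb2* and *Aurkb* passed the filter only through Lgr6+ cells, as did 7 macrophage and 3 endothelial markers. The filter fixed the direction of these, so that they share it supports nothing.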

How the data were processed

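RNA-Seq was performed by the authors on FACS-isolated Lgr5+ and Lgr6+ cells with a SMART-Seq low-input kit, and the reads were trimmed with Trimmomatic, mapped with TopHat and quantified with Cufflinks. Versions were not given in the sources used here. The FPKM values that the authors deposited combine the libraries of a population. The table also holds 3 columns of the authors' own comparison (log2 fold change, *p*-value and *q*-value), which were not used. The paper names mm9 and the labels mm10. Of 22500 symbols matched to RefSeq, 98.8% of the table's intervals overlapped the gene in GRCm38.p6, against 12.7% of 20736 in NCBIM37, so RefSeq GRCm38.p6 positions are given. Transcript lengths for the steps came from GENCODE on NCBIM37, less 200 bases.

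The paper gives a range of read numbers per sample and a range of the share mapped, but not which library each value belongs to. The table has no counts, so the depth behind each population's value is not known here. Groups followed the sample titles. The log2 change, the 1.5-fold rule and list medians were calculated with Python 3.11.15, numpy 2.4.6, pandas 2.3.3 and matplotlib 3.10.9, and the rule was tested on simulated data. The 10 genes and all lists were chosen with earlier results of these data known. From each list the text names genes by a rule: the highest FPKM, the ends of the range, and up to 4 genes per direction with the largest change past 1.5-fold among those with at least 5 FPKM in at least 1 population. *Cks1b* and the genes overlapping *Rb1*, *Rbl2* and *Skp2* stand outside it, as do genes given for a count or a sum. Alternatives were another pseudocount, filter, scaling or fold limit.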

Additional observations from a re-analysis of the deposited data

How the results depend on the processing

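No paired analysis was possible because the table holds 1 combined value per population, so neither a replicate block nor the leaving out of a replicate could be run. The number of the 10 genes at least 1.5-fold higher in Lgr5+ progenitors was 1 and became 0 when at least 5 FPKM was asked of at least 1 population, since *Skp2* was then not among the genes. The number higher in Lgr6+ progenitors was 3, and it became 1 under that filter, 1 with at least 1 FPKM in both populations, 1 after quantile normalization and 1 at a 2-fold limit. The median log2 change of the 10 genes kept its sign, from 0.10 with at least 1 FPKM in both populations to 0.46 after scaling to the same summed FPKM. That scaling moved the median of all kept genes from 0.03 to 0.27, so the latter is to be read relative to it. The log2 change ran from -1.77 to -1.06 for *Skp2*, from -0.55 to -0.28 for *Cdkn1a*, from -0.51 to -0.25 for *Cdkn1b* and from 0.30 to 0.56 for *Cdkn1c*. It ran from 0.26 to 1.87 for *Rbl1* and from 0.47 to 1.12 for *Rbl2*. Over all genes, the counts higher in Lgr5+ and in Lgr6+ progenitors were 3136 and 3826, and they were 1575 and 2443 at a 2-fold limit, 2414 and 2415 with 5 FPKM asked of either population, 2516 and 2392 with 1 FPKM asked of both, and 2186 and 4958 after scaling to the same summed FPKM. *Cdkn2a*, at 0 in both populations, passed no filter. The cause of the changes under quantile normalization was not tested.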
